A study of Caenorhabditis elegans with 2 samples.

Results

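The elt-3 gene of Caenorhabditis elegans and the 20 kb on either side of it were examined in ChIP-seq of its own product, the transcription factor ELT-3. In the ce11 build (WBcel235), elt-3 (WBGene00001251) lies on the plus strand at chrX:13934874-13941216, a span of 6343 bp, and the region examined was chrX:13914874-13961216, 46343 bp long. Its members are all listed peaks that overlap this region. There were 8 of the 1262 peaks kept by the authors' reproducibility threshold, 15 of the 5659 peaks of the pooled list, 31 of 25325 listed peaks in replicate 1 and 30 of 26500 in replicate 2. The region was selected on the signal and number of its listed peaks, which were known from earlier results, so the number and the signal of its peaks are given as a description and carry no test.

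Chromatin was prepared by sonication from larvae of the first larval stage (L1), taken whole, with males and females pooled and the age labelled unknown. There was 1 group of 2 biological replicates, with no second condition. The strain, OP75, has the genotype unc-119(ed3) III; wgIs75, and per the labels it carries a stable transgene from which ELT-3 is made with GFP and FLAG at its C terminus. The labels name elt-3 as the antibody, and it is unclear from them whether ELT-3 or its tag was recognised. Both replicates carry the added elt-3 copy, and no library without it was analysed here. The sources used here do not give how far the transgene extends around elt-3, its copy number or its insertion site. DNA precipitated from the transgene and from the X chromosome copy cannot be told apart wherever the transgene holds the same sequence. Control alignments were part of the authors' peak calling and were not used here.

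ELT-3 is a zinc finger protein of the GATA family, which binds DNA around the letters GATA, and it is expressed in the epidermis, downstream of the epidermal factor ELT-1. Autoregulation is known in this family in worms, since ELT-2, the GATA factor of the intestine, binds its own promoter. Whole larvae were used, so a site bound strongly in few cells and a site bound weakly in many cannot be told apart.

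The sequences around 6 of the 8 thresholded summits are shown because these are the places at elt-3 and mir-47 on which the results turn. Each is the 101-bp stretch centred on the summit, on the plus strand, from the RefSeq genome of WBcel235. Capitals mark the GATA-type motif, which is AGATAA or AGATAG or TGATAA or TGATAG on either strand, so that TTATCA and CTATCT are minus-strand matches. The first stretch lies upstream of mir-47, the next 3 lie in the long intron 2 of elt-3, and the last 2 lie in intron 4 and across intron 6 and exon 7. The windows of the other 2 thresholded peaks touch untranslated regions and are not shown.
mir-47 upstream, chrX:13920518-13920618: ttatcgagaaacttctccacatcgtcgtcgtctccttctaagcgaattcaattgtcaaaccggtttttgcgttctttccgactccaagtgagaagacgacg
elt-3 intron 2, first peak, chrX:13936946-13937046: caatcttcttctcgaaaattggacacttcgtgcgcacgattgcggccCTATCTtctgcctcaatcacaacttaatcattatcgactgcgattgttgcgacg
elt-3 intron 2, middle peak, chrX:13937482-13937582: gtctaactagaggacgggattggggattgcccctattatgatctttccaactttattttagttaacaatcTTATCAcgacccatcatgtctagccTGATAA
elt-3 intron 2, last peak, chrX:13938066-13938166: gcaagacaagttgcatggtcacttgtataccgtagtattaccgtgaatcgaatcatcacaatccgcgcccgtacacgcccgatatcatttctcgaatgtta
elt-3 intron 4, chrX:13939509-13939609: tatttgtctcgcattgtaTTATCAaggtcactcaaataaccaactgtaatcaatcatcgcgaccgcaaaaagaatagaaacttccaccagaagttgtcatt
elt-3 exon 7, chrX:13940376-13940476: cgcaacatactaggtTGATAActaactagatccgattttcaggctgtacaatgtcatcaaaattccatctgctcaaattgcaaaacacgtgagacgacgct

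Of the 15 pooled-list peaks of the region, 8 were kept by the authors' threshold, and over the whole pooled list 22.3% were kept. Since the region was chosen with these peaks known, nothing is read from that difference. The 8 kept peaks fell into 3 places. There were 5 inside elt-3, between 13936996 and 13940426, 2 upstream of it near mir-47 and in meg-1, and 1 downstream in alg-1. In order along the chromosome, the gaps between neighbouring summits were 6726, 9702, 536, 584, 1443, 867 and 10517 bp, so the elt-3 summits stood close together and the others stood apart. The signal is the authors' strength of a peak, on a scale that is not stated, and ranks are by signal within each list. Signals from different lists need not share a scale, so no mean was formed over the replicates.

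**Figure D1:**
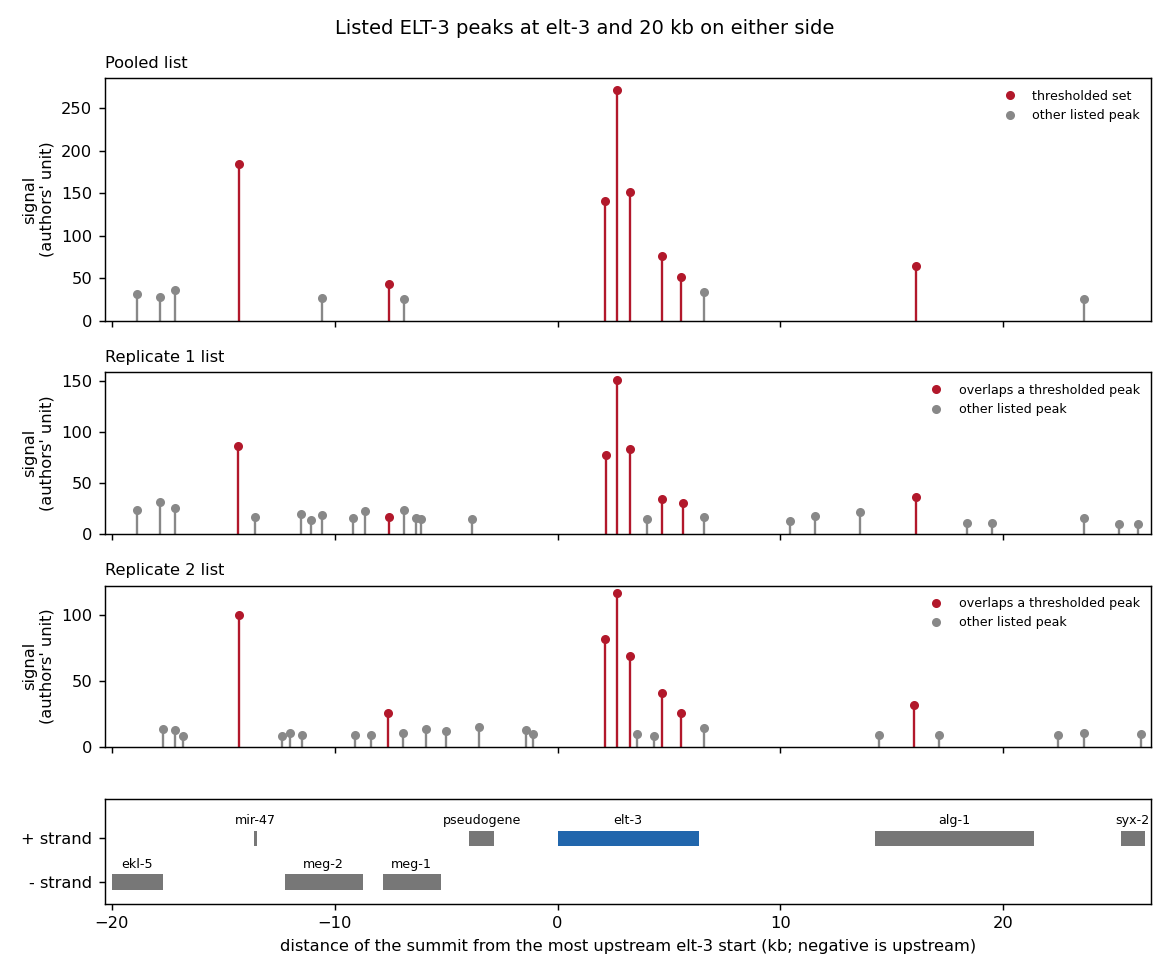
Signal of each listed peak, in the authors' unit (vertical axes), against the distance of its summit from the most upstream elt-3 start in kb (horizontal axis), in the pooled, replicate 1 and replicate 2 lists, each on its own scale, with genes by strand at the bottom. Red marks thresholded peaks, or replicate peaks that overlap one, and grey the others: in the pooled list the 5 in elt-3 have signals from 51.27 to 271.5, the peak upstream of mir-47 has 184.0, and no grey peak exceeds 36.16.

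Intron 2 of elt-3 (chrX:13935121-13938742, 3622 bp, numbered along the longest transcript, K02B9.4a.2) held 3 thresholded summits. The middle peak, chrX:13937491-13937577 with its summit at 13937532, had a pooled signal of 271.5 and rank 1 of the pooled list. In replicate 1 its signal was 151.3 and its rank 1, and in replicate 2 its signal was 116.3 and its rank 3. It was therefore the strongest peak in the pooled list and in replicate 1 but not in replicate 2. Its listed width was 87 bp, and it was 1 of 6 thresholded peaks narrower than the width shared by all others of the set. In the replicates' own lists the same peak was wider, at chrX:13937398-13937657 in replicate 1 and chrX:13937405-13937664 in replicate 2.

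The peak before it, chrX:13936868-13937123 with its summit at 13936996, had a pooled signal of 140.7 and rank 32. Its signal was 77.98 at rank 35 in replicate 1 and 82.0 at rank 20 in replicate 2. This summit lay 8 bp inside the annotated noncoding RNA K02B9.8 (chrX:13936988-13937259, plus strand), which overlaps another noncoding RNA, K02B9.7 (chrX:13936992-13937138, minus strand), both within intron 2. The peak after it, chrX:13937988-13938243 with its summit at 13938116, had a pooled signal of 151.0 and rank 25. Its signal was 83.44 at rank 25 in replicate 1 and 68.64 at rank 29 in replicate 2. All 3 intron 2 peaks were thus among the 35 strongest of each list, and the summits called in the 2 replicates lay 30, 7 and 4 bp apart, in order along the intron.

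Downstream in the gene the peaks were weaker. The peak in intron 4 (chrX:13939431-13939686, summit 13939559) had a pooled signal of 75.76 and rank 265, with 34.26 at rank 521 in replicate 1 and 40.83 at rank 197 in replicate 2. The peak at exon 7 of K02B9.4a.2 (chrX:13940298-13940553, summit 13940426), a coding exon, had a pooled signal of 51.27 and rank 822, with 30.77 at rank 697 in replicate 1 and 26.1 at rank 736 in replicate 2. In both replicates each of these was weaker than each intron 2 peak. The replicate summits were 2 bp apart in intron 4 and 73 bp apart at exon 7. Over the 1253 thresholded peaks with a summit in both replicate lists the median gap was 17 bp, and over the 8 of the region it was 19 bp.

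**Figure D2:**
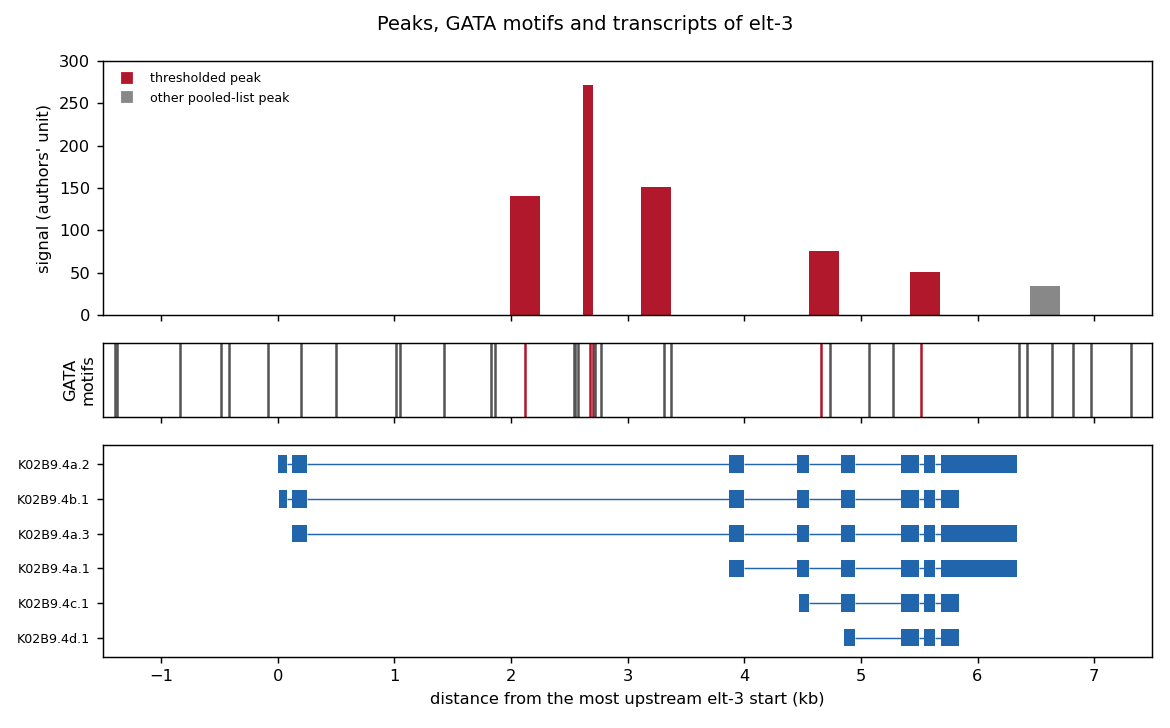
Pooled-list peaks along elt-3 as bars over their listed width, with signal in the authors' unit on the vertical axis and distance from the most upstream elt-3 start in kb on the horizontal axis, above the GATA-type motifs (red within 50 bp of a thresholded summit) and the exons (blocks) and introns (lines) of each transcript. The 3 peaks of intron 2, with signals of 140.7, 271.5 and 151.0, lie between the upstream group of starts and the start of K02B9.4a.1, and the weaker thresholded peaks follow in intron 4 and exon 7.

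The Ensembl annotation of WBcel235 gives elt-3 6 transcripts, which start at 6 positions in an upstream and a downstream group. The upstream starts, of K02B9.4a.2, K02B9.4b.1 and K02B9.4a.3, lie at 13934874, 13934883 and 13934996. No summit of the thresholded set, of the pooled list or of either replicate's list lay within 1000 bp of them. The nearest thresholded summit was 2122, 2113 and 2000 bp downstream of them. The start of K02B9.4a.1 lies at 13938743, immediately after intron 2, and had 2 thresholded summits within 1000 bp, the nearest at -627 bp, negative values being upstream. The start of K02B9.4c.1 at 13939340 had 1, at 219 bp downstream. The start of K02B9.4d.1 at 13939726 had 2, the nearest at -167 bp. In all, 3 of the 8 thresholded peaks lay within 1000 bp of an elt-3 start. The peak in alg-1 also lay within that distance of a protein-coding start, at -319 bp from a start of alg-1. Over all thresholded peaks, 53.9% lay within 1000 bp of a start of any protein-coding gene, a wider measure than elt-3 starts alone. The strongest peak was not among the 3 near an elt-3 start, since its summit was at -1211 bp from the start of K02B9.4a.1. Peak lists do not show which of these starts is used in L1 larvae.

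GATA-type motifs were found 22 times in the elt-3 gene, or 3.468 per kb, of which 16 lay in intron 2, 2 in intron 4, 2 in intron 5 and 1 in intron 6. The rest of the region had 2.575 per kb, the X chromosome 2.568 per kb and the genome 2.375 per kb. Of the 125 motifs of the region, 5 lay within 50 bp of a thresholded summit, and all 5 were in elt-3. This was 22.73% of the motifs in the gene, and over the genome 1034 of 238156 motifs, or 0.4342%, lay so close to a thresholded summit. These shares follow from where the peaks are and describe which motifs lay near a summit, not which were bound.

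Read from the peaks at their pooled summits, 4 of the 8 thresholded peaks had a motif within 50 bp of the summit. All 4 were in elt-3, and 50.2% of all thresholded peaks had one. Of all genome windows of 101 bp set end to end, 19.82% held the motif. The first intron 2 peak had CTATCT at 13936993-13936998, centred 0.5 bp before its summit (-0.5). The strongest peak had TTATCA at 13937552-13937557 and TGATAA at 13937577-13937582, centred 22.5 and 47.5 bp after its summit, the latter reaching past the end of the narrow thresholded peak but inside both replicates' peaks. In intron 4 TTATCA at 13939527-13939532 was centred at -29.5 bp. At exon 7 the summit lay in coding sequence and the match, TGATAA at 13940391-13940396, lay at -32.5 bp in the adjoining 45-bp intron 6. The replicate 1 summit at exon 7, 13940495, had no match within 50 bp. At alg-1, outside elt-3, the replicate 2 summit had a match within 50 bp that the pooled summit did not have. The last intron 2 peak, at rank 25 in the pooled list, had no match within 50 bp of its summit and 1 elsewhere in its listed width. A large signal in intron 2 thus occurred with and without a near match, and of the 8 peaks only the strongest had 2 matches within 50 bp, where 276 of all 1262 (21.87%) had 2 or more.

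The strongest peak of the region outside elt-3 lay between genes. It was listed at chrX:13920440-13920695 with its summit at 13920568, and had a pooled signal of 184.0 and rank 13. Its signal was 86.05 at rank 21 in replicate 1 and 100.1 at rank 8 in replicate 2, and the replicate summits were 8 bp apart. It was stronger than the first and last intron 2 peaks in both replicates. The summit was at -682 bp from the annotated start of the mir-47 hairpin (chrX:13921250-13921346, plus strand), a microRNA precursor, and at -3397 bp from the start of ekl-5, the nearest protein-coding start. It was at -14306 bp from the first elt-3 start. It had no GATA-type motif within 50 bp of its summit or anywhere in its listed width, and 1 bare GATA within 50 bp, visible at the first bases of its sequence as its reverse complement tatc.

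Near the germ granule genes meg-1 and meg-2, whose proteins are components of P granules, the peak at chrX:13927166-13927421 was just inside the threshold. Its pooled signal was 43.01 at rank 1255, where the lowest in the thresholded set was 42.89. Its signal was 16.69 at rank 3921 in replicate 1 and 25.65 at rank 774 in replicate 2, so it ranked among the 1262 strongest in replicate 2 but not in replicate 1. Its summit at 13927294 lay in the 3′ untranslated region of meg-1 and at -1165 bp from the start of meg-2. The strongest pooled-list peak of the region that was not kept had a signal of 36.16 at rank 1778, well outside the threshold. It lay at -537 bp from the start of ekl-5 (summit 13917708).

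Downstream of elt-3, alg-1, which encodes a microRNA Argonaute protein, held the remaining thresholded peak, chrX:13950815-13951070 with its summit at 13950943. The pooled signal was 64.75 at rank 421, with 36.05 at rank 448 in replicate 1 and 31.47 at rank 447 in replicate 2. The summit was at -319 bp from the start of the transcript a.1 of alg-1, within the gene's other transcripts, and the replicate summits were 75 bp apart. The peak had no motif within 50 bp of its pooled or replicate 1 summit and 1 elsewhere in its listed width. That motif lay within 50 bp of the replicate 2 summit, at 13950863. Apart from elt-3, alg-1 was the only protein-coding gene of the region with a thresholded summit within 1000 bp of a start. The syntaxin gene syx-2 at the downstream edge had its nearest thresholded summit at -9206 bp.

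The 7 pooled-list peaks that were not kept had signals from 25.72 to 36.16. All 7 ranked better in replicate 1 than in replicate 2 or were listed in replicate 1 alone. At ekl-5, the peak in its coding sequence at 13917060 ranked 655 in replicate 1 with a signal of 31.45, and ranked 5040 in replicate 2 with 13.71. The peak upstream of it at 13917708 ranked 1131 with 25.15 in replicate 1 and 6848 with 12.61 in replicate 2. The remaining ekl-5 peak, at 13916014, ranked 1290 with 23.69 in replicate 1 and overlapped no listed peak in replicate 2. The same held for a peak in the coding sequence of meg-2, at 13924323, which ranked 2889 with 18.12 in replicate 1. In the coding sequence of meg-1, the peak at 13927988 ranked 1305 with 23.55 in replicate 1 and 11832 with 10.81 in replicate 2. Upstream of syx-2, the peak at 13958500 ranked 4720 with 15.86 and 12651 with 10.6. A peak just past the 3′ end of elt-3, with its summit at 13941453, had a pooled signal of 34.22 at rank 2008, with 16.82 at rank 3805 and 14.33 at rank 4253 in the replicates.

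Each replicate's own list can be read against its 1262 strongest peaks, the same number as in the thresholded set. In replicate 1, 9 of the 31 listed peaks were among them, where the share over its whole list is 4.98%. In replicate 2, 8 of the 30 were among them, where the share over its whole list is 4.76%. In replicate 2 these 8 overlapped the 8 thresholded peaks. In replicate 1 they overlapped 7 of them, and the other 2 were the ekl-5 peaks at ranks 655 and 1131. Without a thresholded peak there were 23 listed peaks in replicate 1, with signals from 9.967 to 31.45 and a median of 15.86, and 22 in replicate 2, with a highest signal of 15.51 and a median of 10.11. Within elt-3 itself these additional peaks were weak. Replicate 1 listed 1, in intron 3 (summit 13938881), with a signal of 14.9 at rank 5991. Replicate 2 listed 2 at other places, with signals of 10.06 at rank 14937 (summit 13938448) and 8.285 at rank 25723 (summit 13939210).

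**Figure D3:**
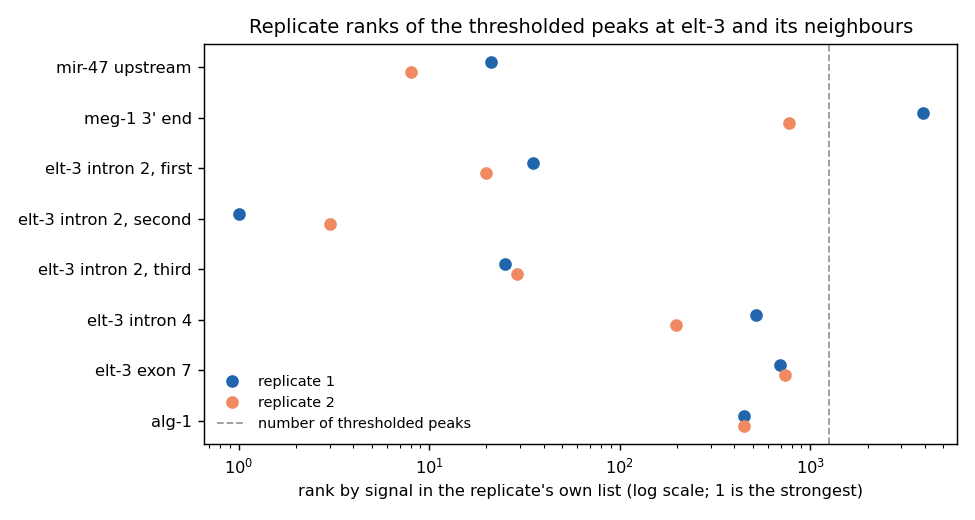
Rank by signal of each of the 8 thresholded peaks (vertical axis) in the list of replicate 1 and of replicate 2 (points, horizontal log axis, 1 being the strongest), with the number of thresholded peaks, 1262, as a dashed line. The 3 intron 2 peaks and the peak upstream of mir-47 are at rank 35 or better in both replicates, whereas the meg-1 peak is at rank 3921 in replicate 1 and 774 in replicate 2.

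The elt-3 flanks also held more of the weaker listed peaks, those not among a list's 1262 strongest, than the genome mean. Within 20 kb on either side of the gene there were 21 in replicate 1 and 20 in replicate 2, or 0.525 and 0.5 per kb, against genome means of 0.24 and 0.2517 per kb and means over the X chromosome of 0.2701 and 0.2918 per kb. Upstream of the gene there were 12 and 14 of them, and downstream 9 and 6. The lowest of these 4 densities, 0.3 per kb downstream in replicate 2, was close to the mean over the X chromosome. From 20 to 40 kb the numbers were 7 and 9, or 0.175 and 0.225 per kb, and no thresholded peak lay there. Such densities occurred elsewhere in the genome. The region with the gene held 22 weaker peaks in each replicate, and of 2161 genome windows of the same length 31 (1.435%) held as many or more in replicate 1 and 51 (2.36%) in replicate 2. By 5-kb bins the flanks held 1 to 6 weaker peaks in replicate 1 and 1 to 4 in replicate 2, where the genome means were 1.2 and 1.258.

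The gene unc-119 on chromosome III (chrIII:10902641-10908935) serves as a second place named in the genotype. Within 20 kb of it there was no thresholded peak and 1 pooled-list peak, chrIII:10892673-10892928, with a signal of 25.67 at rank 4786. Its flanks held 8 and 6 weaker peaks in the 2 replicates, or 0.2 and 0.15 per kb. The sources used here do not say whether unc-119 DNA forms part of the transgene. Both replicates carry the added elt-3 copy, and its part in the number and strength of the listed peaks at elt-3 was not tested.

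**Figure D4:**
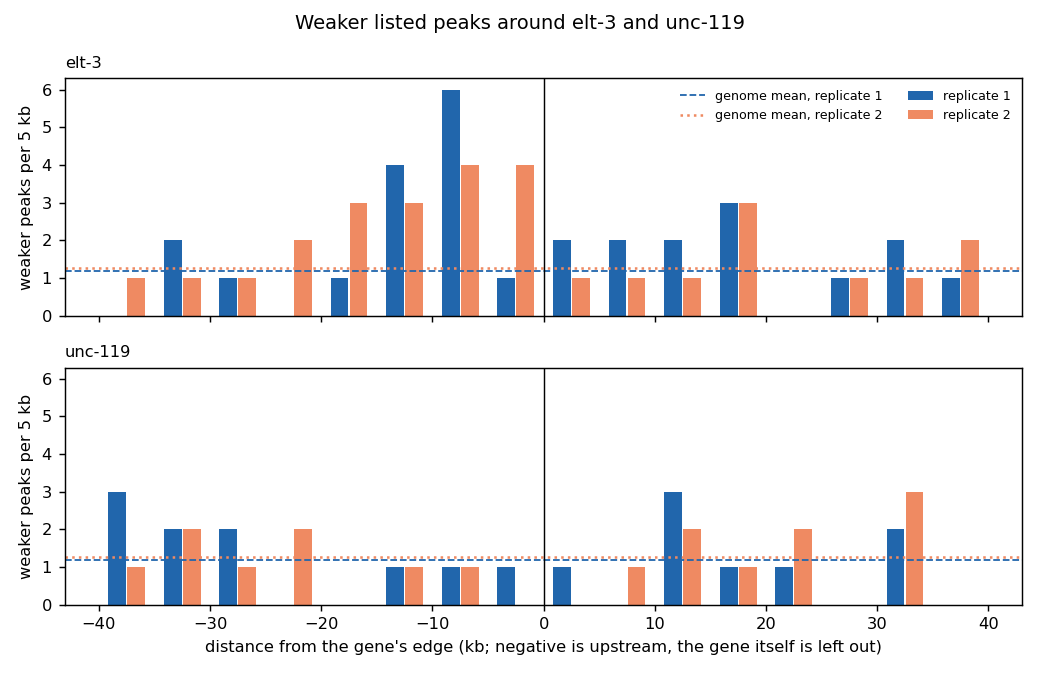
Number of weaker listed peaks per 5 kb (bars, vertical axis) against distance from the edge of elt-3 (top) and unc-119 (bottom) in kb (horizontal axis, the gene itself left out) in both replicates, with the genome mean of each list as a broken line. Within 20 kb of elt-3 the bins hold 1 to 6 peaks in replicate 1 and 1 to 4 in replicate 2, against means of 1.2 and 1.258.

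Among 19973 protein-coding genes, 365 (1.83%) had a thresholded summit within the gene span, and elt-3 was the only one with 5. It also ranked first by the summed signal of these summits, at 690.3. No other stretch of 3430 bp, the distance from the first to the last elt-3 summit, held 5 thresholded summits. A density of this kind over the whole region was not confined to elt-3, since 1 of the 2161 genome windows, chrV:6209963-6256305, held 9 thresholded summits where the elt-3 region held 8. The genes most like elt-3 by the number of thresholded summits in the span were let-607, zfp-1, dkf-2 and cwf-19L2 with 4 each. Another 11 genes had 3, of which ccch-1, the one with the strongest summit, is named here. The strongest of these summits had a signal of 178.3 in let-607, 77.11 in zfp-1, 68.79 in dkf-2, 59.58 in cwf-19L2 and 95.58 in ccch-1. These genes are longer than elt-3, from 11507 bp for let-607 to 40820 bp for dkf-2, and the likeness is in summit number alone.

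The other GATA factor genes had no thresholded summit within their span and 5 kb on either side, which 13.9% of all protein-coding genes had. This was 0 of 10 genes, namely elt-1, elt-2, elt-4, egl-18, elt-6, elt-7, end-1, end-3, med-1 and med-2. The strongest pooled-list signals there were 32.48 at med-1, 31.27 at med-2, 31.24 at egl-18 and elt-6, 28.44 at elt-1 and 25.89 at end-1, all under the lowest signal of the thresholded set. At elt-2, elt-4, elt-7 and end-3 the pooled list held none. Among 8 genes that have been studied with elt-3, 3 had a thresholded summit within that distance. The antimicrobial peptide gene nlp-29 had 1, at chrV:3979914-3980169, with a pooled signal of 122.9 at rank 52, 57.85 at rank 92 in replicate 1 and 63.46 at rank 44 in replicate 2. The collagen gene col-144 had 2, the strongest with a signal of 60.66 at rank 505, and the nuclear receptor gene nhr-25, an epidermal regulator, had 2, the strongest with 51.66 at rank 801. The summit at nlp-29 and the strongest of those at col-144 lay at -4383 and -4834 bp from the gene start with a motif within 50 bp, and the strongest of those at nhr-25 lay 629 bp after the start with none. The weaker summits at col-144 and nhr-25 were not described further. The epidermal factor gene lin-26, the stress response gene skn-1 and the glycerol synthesis gene gpdh-1 had no thresholded summit there, and their strongest pooled-list signals were 32.17, 36.01 and 29.98. At vab-7 and hmit-1.1 the pooled list held no peak. Neither the −log10 q-value nor the signal gives an error for a single peak. The q-value was tied at its highest listed −log10, 2.761, for 289 thresholded peaks, 5 of them in the region, and gave no order among these.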

How the data were processed

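ELT-3 ChIP-seq peaks of 2 biological replicates were used. Per the file lists in the labels, the authors called peaks on each replicate and on the pooled replicates against control alignments and thresholded the pooled list on reproducibility between lists. Which aligner and caller were used, and which versions, is not given in the sources used here. The deposited signal of a peak is the authors' value on an unstated scale, and each deposited peak has a −log10 q-value and no p-value. Read depth is unknown, and so is the precision of a single value. Lists of ce11 were used with the RefSeq sequence and Ensembl annotation of WBcel235. The ce10 lists were not used and no coordinate was converted.

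Peaks were members if they overlapped the region by at least 1 bp. A replicate's value for a pooled-list peak is that of its strongest overlapping listed peak. Peaks were ranked by signal within a list. Motifs were sought on both strands within 50 bp of a summit. Distances are from the summit to a transcript start, negative upstream. By rule, the named peaks are all thresholded peaks of the region and listed peaks in elt-3, and the named genes are the protein-coding genes of the region, unc-119, the 5 genes outside it with the most thresholded summits in their span (ties by the strongest signal, then position), and all members of 2 gene lists. The other pooled-list peaks of the region, the pooled-list peak near unc-119 and the noncoding genes at a summit were named after their values were seen. The region, the lists and the rules were chosen with earlier results of these data known. With 1 group of 2 replicates no test was run. Alternatives were other margins, motif windows and motifs, start distances, ranking by q-value and each replicate alone. The scripts used Python 3.11.15, numpy 2.4.6, pandas 2.3.3 and matplotlib 3.10.9 and were tested on simulated data.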

Additional observations from a re-analysis of the deposited data

How the results depend on the processing

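The number of thresholded peaks was 8 in the region and 5 with a margin of 5 kb, and from 8 to 9 with either replicate left out and the other's strongest peaks used. Under the other margins, by summit position and among the stronger thresholded peaks it was between 6 and 8. The signal rank of the strongest elt-3 peak was 1 to 3 with either replicate left out, the lower place being that in replicate 2 alone. Thresholded peaks with a motif numbered 2 with a window of 25 bp and 7 when GATA alone was sought, against 4. Over all thresholded peaks these settings gave 28.61% and 68.3%. With either replicate left out and the other's strongest peaks used, 4 to 5 peaks had a motif, but not all at the same places. With replicate 2 left out, the 4 included the ekl-5 peak at rank 1131 in replicate 1 (summit 13917730), which overlapped no thresholded peak. Fewer than 4 thresholded peaks thus had a motif at their replicate 1 summit. The exon 7 match was lost at the replicate 1 summit, and a match at alg-1 was gained at the replicate 2 summit. The pooled list held 6 peaks with a margin of 5 kb and 9 with 10 kb, against 15. Each replicate's unthresholded list held 30 to 31, and these lists include background peaks. The count near an elt-3 start, 3, became 0 for the most upstream start alone, 1 within 500 bp and 5 within 2000 bp. These margins, distances and motifs hold fewer or more places by construction. No paired analysis was possible because there is 1 group. Peak lists give no read depth, so a peak that is not listed was not detected at an unknown depth, and no interval can be given for a signal.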
